A study of Mus musculus with 16 samples.

Results

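The tumor necrosis factor (TNF) superfamily is a set of ligands, mostly trimeric proteins of the cell surface, and of the receptors that bind them. Members were taken by name from the protein-coding genes of the mouse RefSeq annotation: every symbol that begins with Tnfrsf (receptors) or Tnfsf (ligands), with Fas, Fasl, Cd27, Cd70, Lta, Ltb, Ltbr, Tnf, Cd40lg and Ngfr. This gave 42 of 21631 genes. A peak of open chromatin was assigned to the gene whose span lay nearest to the middle of the peak, up to 50 kb away, and 228 of 82188 peaks fell to 35 members, with 1 to 20 peaks each. No peak of the table was assigned to the other members, Tnf, Lta, Ltb, Tnfsf12, Tnfsfm13, Tnfrsf9 and Tnfrsf11b.

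Chromatin accessibility was measured by Omni-ATAC, in which a transposase cuts open DNA and tags it for sequencing, in spleen cells of C57BL/6 mice aged 8 to 10 weeks. There were 4 groups of 4 libraries: wild-type Smarca4+/+ (WT) and heterozygous Smarca4+/- (HET), each with cells titled CB and with cells titled CC. The series is described as one of germinal center B cells, so CB and CC are read here as centroblasts and centrocytes, which the labels do not spell out. Smarca4 encodes BRG1, the motor of the BAF chromatin remodeler, and the comparison of genotypes addresses what losing 1 allele does to open chromatin. The labels give neither the sort gate, nor the agent that deleted the allele and in which cells, nor whether a replicate is an animal of its own. The p-values therefore describe the spread between libraries, part of which may be technical.

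In the germinal center, B cells divide and mutate their antibody genes as centroblasts and then compete for T cell help as centrocytes. Several receptors of this family decide between survival and death there. Fas carries a death domain that can start apoptosis, and its protein is widely used to recognise germinal center B cells. The BAFF receptor Tnfrsf13c sustains mature B cells. Ligands such as Cd40lg and Tnfsf4 are carried mainly by T cells or activated antigen-presenting cells, and HVEM, the product of Tnfrsf14, is lost in many follicular lymphomas. A value below is the accessibility around a gene, in CPM (counts scaled to a common library size) summed over its peaks. It is not the amount of RNA or protein, and it grows with the number of peaks, so levels are compared between groups and not between genes.

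Accessibility at gene starts differed in level between members, and 3 examples each of 2 kinds of start are printed here. Several results below, at Fas, Tnfrsf13b and Tnfrsf13c among others, lie away from the start. The 250 bases before the start are given 5′ to 3′ along the gene, from RefSeq's promoters of GRCm38.p6 (mm10). Capitals mark matches to the motifs searched: AP-1 (TGANTCA), KLF and SP (GGGCGG, or CCGCCC on the other strand) and the E-box CAGCTG. Fas (chr19:34290409-34290658, plus strand), Tnfsf14 (chr17:57194182-57194431, minus strand) and Tnfrsf23 (chr7:143685876-143686125, minus strand) had starts that were already accessible in CB.
Fas: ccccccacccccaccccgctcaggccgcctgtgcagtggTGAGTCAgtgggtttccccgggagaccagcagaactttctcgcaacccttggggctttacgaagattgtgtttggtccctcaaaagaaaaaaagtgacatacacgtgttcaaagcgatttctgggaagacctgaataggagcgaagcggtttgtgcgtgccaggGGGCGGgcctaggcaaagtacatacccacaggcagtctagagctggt
Tnfsf14: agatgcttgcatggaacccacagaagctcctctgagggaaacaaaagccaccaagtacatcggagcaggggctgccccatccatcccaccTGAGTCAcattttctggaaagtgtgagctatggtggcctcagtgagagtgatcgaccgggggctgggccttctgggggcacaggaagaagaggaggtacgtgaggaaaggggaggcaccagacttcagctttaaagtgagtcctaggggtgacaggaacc
Tnfrsf23: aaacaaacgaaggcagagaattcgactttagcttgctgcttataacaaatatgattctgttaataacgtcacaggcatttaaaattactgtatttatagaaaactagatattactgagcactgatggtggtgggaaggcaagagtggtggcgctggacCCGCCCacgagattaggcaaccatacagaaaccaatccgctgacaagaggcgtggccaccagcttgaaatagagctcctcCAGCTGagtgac
Cd27 (chr6:125237028-125237277, minus strand), Ltbr (chr6:125313886-125314135, minus strand) and Tnfrsf1a (chr6:125349473-125349722, plus strand) had starts that were little accessible in CB and gained signal in CC.
Cd27: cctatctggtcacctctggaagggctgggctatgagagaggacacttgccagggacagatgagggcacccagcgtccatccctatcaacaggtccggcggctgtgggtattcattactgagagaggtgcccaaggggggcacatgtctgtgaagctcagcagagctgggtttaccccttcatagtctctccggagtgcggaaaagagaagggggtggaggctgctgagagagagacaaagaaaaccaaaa
Ltbr: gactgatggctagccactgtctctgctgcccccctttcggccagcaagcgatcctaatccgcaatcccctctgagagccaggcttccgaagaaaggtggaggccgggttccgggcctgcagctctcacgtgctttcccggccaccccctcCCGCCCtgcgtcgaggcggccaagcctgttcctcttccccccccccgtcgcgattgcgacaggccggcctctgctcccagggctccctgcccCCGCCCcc
Tnfrsf1a: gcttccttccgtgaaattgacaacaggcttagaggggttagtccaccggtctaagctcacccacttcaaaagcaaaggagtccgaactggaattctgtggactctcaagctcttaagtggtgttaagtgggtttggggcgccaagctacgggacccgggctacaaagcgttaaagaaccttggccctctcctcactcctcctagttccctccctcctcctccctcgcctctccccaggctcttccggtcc
A peak of the count table overlapped each of these promoters. The windows before Fas and Tnfsf14 hold 1 AP-1 match each. Those before Cd27 and Tnfrsf1a hold none of the motifs searched. Neither does the promoter of Tnfrsf13b, which a peak overlapped, while promoters of Tnfsf13 and Tnfrsf9 without a peak hold an AP-1 match. A link between motifs and accessibility was not tested.

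The RefSeq table held 37 promoters of 33 members, each with 250 bases before and 50 bases after the start, and a peak overlapped 25 of them. Both strands were searched, and motifs could overlap. An AP-1 match lay in 7 member promoters (18.9%, against 6.99% of 21263 promoters), at 6 distinct sites in 6 members because the Tnfsf13b promoters overlap, and the interferon regulatory factor motif GAAANNGAA in 6 (16.2%, against 8.15%). CAGCTG was found in 8 (21.6%, against 15.6%) and GGGCGG in 18 (48.6%, against 46.2%). The NF-kB motif GGANNTTCC was found in 2, those of Tnf and Ltb (5.41%, against 4.36%). GAGGAAGT, read by PU.1 and ETS factors, was found in 1 (2.7%, against 3.13%), and the octamer ATGCAAAT in 0 (against 1.66%). A match is a string of letters in the window and does not show binding.

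Most loci of the family differed between CB and CC in WT mice. By the edgeR quasi-likelihood test with Benjamini-Hochberg adjustment over all loci, 16 of the 35 measured members rose from CB to CC and 15 fell at an adjusted p below 0.05, which is what "rose", "fell" and "called" mean throughout. Over all 15075 loci 31.6% rose and 31.7% fell. The median log2 change was 0.12 over the members and -0.01 over all loci. The 4 CC and 4 CB libraries did not overlap at 28 members, against 53.7% of all loci. At peak level 78 of the 228 member peaks rose (30.2% of all peaks) and 75 fell (27.7%). Sorted cells can differ in the types they hold, and fewer cells of a type and less signal per cell cannot be told apart here.

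The library totals also differed between the labels. The 8 CB libraries held 31696941 to 51011923 counts, the HET CC libraries 5310327 to 7474760 and the WT CC libraries 3494356 to 3750936. Depth and label cannot be told apart from these totals alone. Within CC the totals of the genotypes did not overlap, so depth and genotype cannot be told apart there either. With every library thinned to the smallest total, 13 members rose and 12 fell in WT, where 28.6% and 27.3% of all loci tested did.

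**Figure D1:**
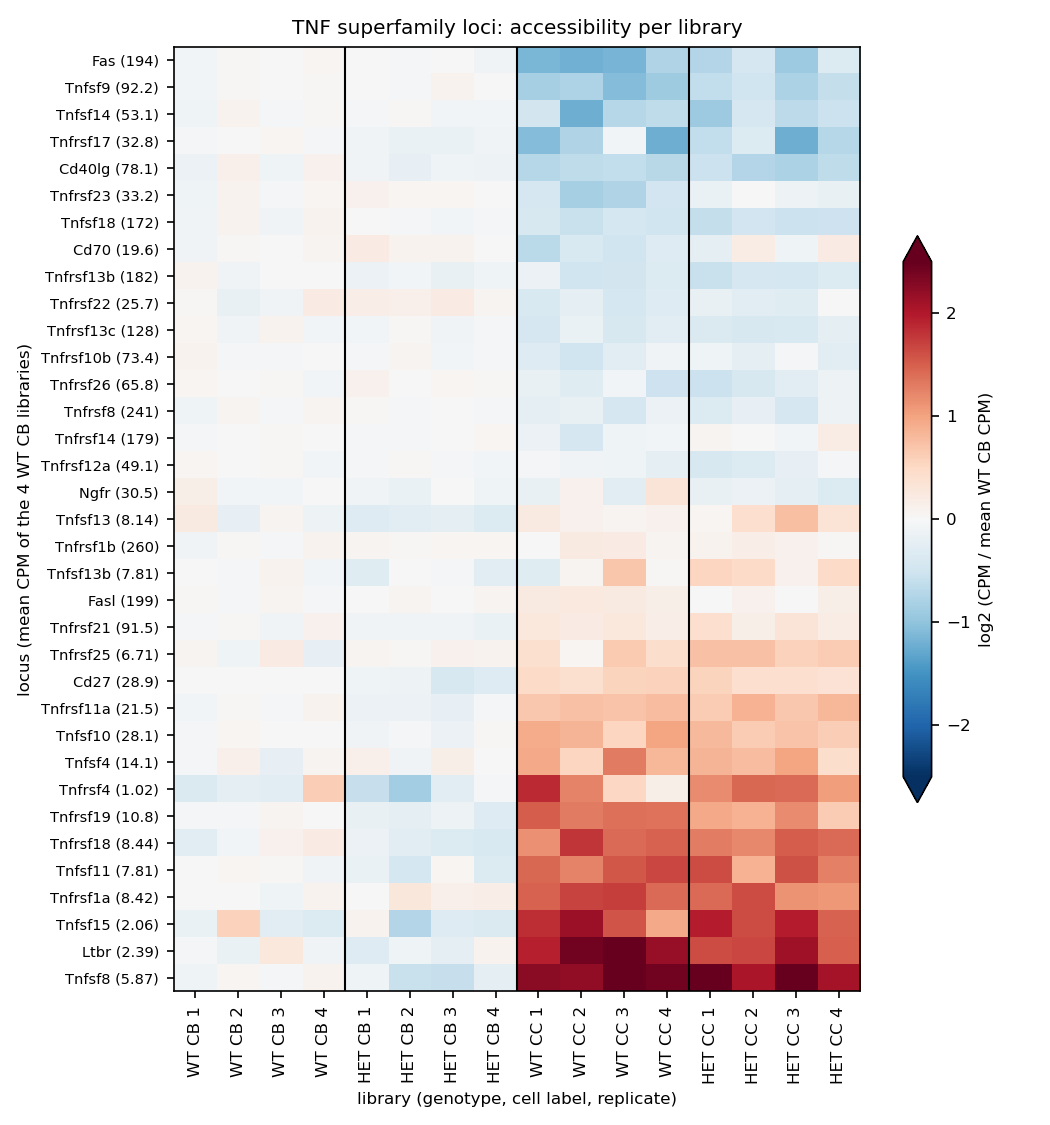
Accessibility of the 35 measured members in each of the 16 libraries. Rows are loci with the mean CPM of the WT CB libraries in brackets, columns are libraries by genotype, cell label and replicate, and color is the log2 ratio to the mean of the 4 WT CB libraries. The CB libraries of both genotypes look alike, and most loci separate CC from CB, with Tnfsf8 and Ltbr the highest in CC and Fas among the lowest.

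In the group of Fas and the death ligand TRAIL, with their partners and decoys, 5 of 7 measured members fell and 2 rose. Of all loci 31.7% fell and 31.6% rose. The death domain receptors Tnfrsf1a and Tnfrsf21 are not in this group and are given further on. Fas, the receptor of the Fas ligand (chr19:34290647-34327775, 13 peaks), had 183.8, 197.4, 192.3 and 200.6 CPM in WT CB and 87.2, 84.7, 86.6 and 114.6 in WT CC. Every CC library lay far below every CB library. The change was -1.05 on the log2 scale (SE 0.084, edgeR adjusted p = 8.4e-13). Of its 13 peaks 11 fell, and the peak at the start, printed above, did not pass the test (25.27 CPM in CB and 21.7 in CC, log2 -0.22, SE 0.111, adjusted p = 0.0904).

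Tnfrsf23 (chr7:143665807-143686436, 2 peaks), a mouse decoy receptor for the death ligand TRAIL, had 31, 35.3, 32.2 and 34.4 CPM in WT CB and 24.7, 18.7, 19.7 and 23.8 in WT CC. The groups did not overlap, and the locus fell by 0.61 (SE 0.101, edgeR adjusted p = 2.09e-06). Its neighbours Tnfrsf22, also a decoy receptor (-0.34, adjusted p = 0.0101), and Tnfrsf26 (-0.26, 0.00495) fell less, and so did Tnfrsf10b, the mouse TRAIL receptor that signals death (-0.28, 0.00107). Tnfsf10, which encodes TRAIL, rose by 0.84 (1.28e-10).

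Fasl, the ligand of Fas (chr1:161780691-161788495, 17 peaks), had 203.1, 192.8, 209.9 and 191.9 CPM in WT CB and 231.5, 236.7, 232.8 and 221.8 in WT CC. All CC libraries were above all CB libraries, with a log2 change of 0.21 (SE 0.046, edgeR adjusted p = 0.000153). With peaks up to 10 kb alone the change was 1.73 (2.43e-15). Its peaks went both ways: 10 rose, 3 fell, and the extremes were 3.12 and -0.86. The peak 52 bp after the start rose from 1.33 ± 0.349 to 7.97 ± 1.57 CPM (mean ± SD, n = 4; log2 2.59, adjusted p = 1.85e-12). Receptor and ligand thus differed in direction at these loci.

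The 3 receptors of the B cell survival factors BAFF and APRIL were all lower in CC. Tnfrsf13c, the BAFF receptor (chr15:82221742-82224380, 5 peaks), had 132.9, 120.8, 137.1 and 122.6 CPM in WT CB and 96.4, 114.3, 96.9 and 107.5 in WT CC. The highest CC library stayed below the lowest CB library, and the log2 change was -0.31 (SE 0.061, edgeR adjusted p = 3.24e-05). The fall lay in peaks 7009 bp (-1.21) and 5243 bp (-0.45) after the start. The peak 12 bp before the start did not pass (0.03, adjusted p = 0.803).

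Tnfrsf13b, which encodes TACI, a receptor of both factors (chr11:61126283-61153170, 12 peaks), had 193, 171.2, 182 and 180.9 CPM in WT CB and 164.1, 128.4, 131.8 and 142.7 in WT CC. The groups were apart by a small gap, with WT CC replicate 1 the nearest, and the change was -0.36 (SE 0.059, adjusted p = 1.73e-06). One peak 6381 bp into the gene went from 9.78 to 2.16 CPM (-2.16, adjusted p = 1.19e-10), while the peak at the start stayed level in the means (17.16 and 17.06 CPM, adjusted p = 0.957).

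Tnfrsf17, which encodes the plasma cell receptor BCMA (chr16:11313232-11320074, 3 peaks), had 32.3, 33, 34.1 and 31.9 CPM in WT CB and 15.5, 19.6, 31.4 and 14.2 in WT CC. WT CC replicate 3 lay just below the CB libraries and the other CC libraries far lower, so the spread in CC was wide (log2 -0.71, SE 0.144, edgeR adjusted p = 6.42e-05). The ligand loci did not pass the test in WT. Tnfsf13b, which encodes BAFF (chr8:10006229-10036000, 2 peaks), had 7.9, 7.62, 8.27 and 7.44 CPM in WT CB and 6.31, 8.14, 12.6 and 7.94 in WT CC (0.16, adjusted p = 0.445). The single peak of Tnfsf13, which encodes APRIL, also lies in the span of the readthrough gene Tnfsfm13, so its signal cannot be given to 1 of them (7.05 to 9.55 CPM in WT CB, 8.52 to 9.46 in WT CC, 0.12, adjusted p = 0.559).

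All 12 measured members of the T cell costimulation group were called, 7 up and 5 down, where 31.6% and 31.7% of all loci were. Tnfsf8, which encodes the CD30 ligand (chr4:63831202-63861508, 8 peaks), had 5.46, 6.07, 5.68 and 6.25 CPM in WT CB and 28.1, 27.4, 37 and 31.2 in WT CC. Every CC library was several times above every CB library, and the log2 change of 2.40 (SE 0.153, edgeR adjusted p = 3.03e-16) was the largest of the 35 members. All 8 of its peaks rose, by 1.46 to 3.36.

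Its receptor CD30, encoded by Tnfrsf8 (chr4:145267132-145315164, 20 peaks), had 224.4, 252.8, 235.4 and 251.6 CPM in WT CB and 203.3, 212.2, 179.4 and 217 in WT CC. The CC libraries were all lower (-0.25, SE 0.057, edgeR adjusted p = 0.000249). Of the 20 peaks 9 fell and 3 rose, and the peak 101 bp before the start fell by 0.92 (adjusted p = 3.33e-05).

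Cd27, a receptor of activated lymphocytes (chr6:125232620-125237136, 5 peaks), had 28.7, 29.1, 28.9 and 28.7 CPM in WT CB and 40.4, 38, 42.3 and 42.8 in WT CC. The groups were clearly apart (0.50, SE 0.091, edgeR adjusted p = 8.32e-06), and with peaks up to 10 kb alone the change was 2.14 (9.23e-13). Of its 5 peaks 2 rose and 1 fell, with -1.21 the lowest change. The steepest rise lay at the start printed above, which went from 1.08, 1.54, 1.07 and 1.36 CPM to 10, 5, 6.48 and 9.85 (2.64, SE 0.265, adjusted p = 1.33e-12). Its ligand Cd70 (chr17:57145997-57149777, 3 peaks) had 18.4, 20, 19.5 and 20.4 CPM in WT CB and 12.3, 15.1, 13.8 and 15.6 in WT CC. All CC libraries were lower (-0.46, SE 0.127, adjusted p = 0.00177; -0.70 with peaks up to 10 kb), so receptor and ligand locus again went opposite ways.

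Tnfsf9, which encodes the 4-1BB ligand (chr17:57105287-57107758, 8 peaks), had 88, 94.4, 92.1 and 94.4 CPM in WT CB and 52.2, 53.7, 43.8 and 49.9 in WT CC. No library overlapped, and the fall of 0.89 (SE 0.072, edgeR adjusted p = 2.03e-13) was shared by 7 of the 8 peaks. Cd40lg, the ligand through which T cells help B cells (chrX:57212143-57224042, 13 peaks), had 70.8, 85.4, 72.1 and 84.1 CPM in WT CB and 47.9, 50.4, 50.8 and 48.2 in WT CC. It too fell without overlap (-0.66, SE 0.079, adjusted p = 3.31e-09), but of its 13 peaks 6 fell, 6 were not called and 1 rose (1.41). Tnfsf18, which encodes the GITR ligand, fell by 0.47 (1.83e-09).

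Tnfrsf18, which encodes GITR, a receptor of regulatory and activated T cells (chr4:156026322-156028894, 3 peaks), had 6.91, 8.06, 9.03 and 9.76 CPM in WT CB and 18.6, 29.2, 22.6 and 23.6 in WT CC. Each CC library was well above each CB library (1.47, SE 0.143, edgeR adjusted p = 1.94e-11). Tnfsf15, which encodes the cytokine TL1A (chr4:63724600-63745059, 2 peaks), had 1.85, 3.07, 1.7 and 1.64 CPM in WT CB and 7.46, 9.04, 6.17 and 3.97 in WT CC. These levels were low and the spread in CC wide, but the groups did not overlap (1.70, SE 0.281, adjusted p = 2.11e-06). The other rises were Tnfrsf4, which encodes OX40 and has a single peak with 4 to 13 counts per WT CC library (1.09, adjusted p = 0.0217), its ligand Tnfsf4 (0.93, 1.2e-07) and Tnfrsf25, the receptor of TL1A (0.40, 0.0409).

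In the TNF and lymphotoxin group 3 of 5 measured members rose and 2 fell, where 31.6% and 31.7% of all loci did. Ltbr, the lymphotoxin beta receptor (chr6:125306571-125313885), has 1 peak, at its start, with 2.3, 2.12, 2.88 and 2.23 CPM in WT CB and 9.18, 12.7, 13.8 and 10.8 in WT CC. The groups were far apart (2.27, SE 0.208, edgeR adjusted p = 4.89e-12). Tnfrsf1a, the TNF receptor with a death domain (chr6:125349723-125362483, 4 peaks), lies next to it and had 8.44, 8.43, 7.8 and 8.99 CPM in WT CB and 23.5, 27.1, 27.9 and 22.4 in WT CC. It rose by 1.58 without overlap (SE 0.133, adjusted p = 5e-13), and its start by 2.17 (2.99e-13).

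Tnfrsf1b, the TNF receptor without a death domain (chr4:145212368-145246870, 16 peaks), had 243.7, 265.5, 251.4 and 277.4 CPM in WT CB and 256.1, 303.9, 299.2 and 272 in WT CC. The groups overlapped, and the rise was small (0.12, SE 0.048, edgeR adjusted p = 0.0249). It did not pass without WT CB replicate 1 (adjusted p = 0.102) or 3 (0.0682), without WT CC replicate 2 (0.141) or 3 (0.115), or with the WT libraries fitted alone (0.0537).

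Tnfsf14, which encodes LIGHT, a ligand of HVEM and of the lymphotoxin beta receptor (chr17:57189474-57194181, 4 peaks), had 49.3, 56.8, 52.3 and 54.1 CPM in WT CB and 38.7, 22.9, 32.3 and 34.3 in WT CC. All CC libraries were lower (-0.72, SE 0.101, edgeR adjusted p = 8.74e-08). The fall was steepest 307 bp before the start (22.38, 26.07, 24.08 and 26.39 CPM in CB, 15.56, 7.36, 9.02 and 9.03 in CC, -1.26, adjusted p = 5.23e-11). Tnfrsf14, which encodes HVEM (chr4:154918487-154928620, 12 peaks), had 175.4, 176.9, 182.8 and 180.8 CPM in WT CB and 161.2, 133.9, 165.3 and 171.6 in WT CC. Its fall was slight (-0.18, SE 0.056, adjusted p = 0.00608) and did not pass without WT CC replicate 2 (-0.11, 0.0871), with thinned counts (0.0716) or with peaks up to 10 kb (-0.04, 0.624).

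Of the 6 remaining measured members, in the group of RANK, TWEAK receptor and others, 4 rose and none fell. Over all loci 31.6% rose and 31.7% fell. Tnfsf11, which encodes the RANK ligand (chr14:78277446-78308043, 5 peaks), had 7.85, 8.06, 8.02 and 7.32 CPM in WT CB and 21.2, 18.4, 22.9 and 25 in WT CC. The groups did not overlap (1.49, SE 0.155, edgeR adjusted p = 1.29e-10). Its receptor RANK, encoded by Tnfrsf11a, rose by 0.72 (1.94e-08). Tnfrsf19, an orphan receptor (chr14:60963834-61046855, 5 peaks), had 10.5, 10.6, 11.4 and 10.8 CPM in WT CB and 31, 26.5, 28.2 and 27.8 in WT CC. All 5 of its peaks rose (locus 1.39, SE 0.119, adjusted p = 8.95e-13). Tnfrsf21, a death domain receptor, rose by 0.22 (0.00201), and Tnfrsf12a (-0.11, 0.228) and Ngfr (0.01, 0.944) did not pass.

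Peaks near gene starts went up more often than down. Of 32 member peaks within 1 kb of a start 15 rose and 6 fell in WT CC, where 33.6% and 23.6% of all 14616 such peaks did. The 7 largest rises were at starts with at most 2.35 CPM in CB: Tnfsf8 (338 bp after the start, 2.90), Tnfsf11 (928 bp after, 2.73, and 87 bp before, 1.91), Cd27 (2.64), Fasl (2.59), Ltbr (2.33) and Tnfrsf1a (2.17). The starts of the B cell receptors Tnfrsf13c and Tnfrsf13b, and those of Fas, Tnfrsf1b, Tnfrsf11a, Tnfrsf12a and Ngfr, did not pass the test. Of the 6 that fell, 2 each belonged to Tnfsf14 (-1.26 and -0.52) and Tnfrsf14 (-0.77 and -0.31), and the others to Tnfrsf8 and Tnfrsf23 (-0.54).

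**Figure D2:**
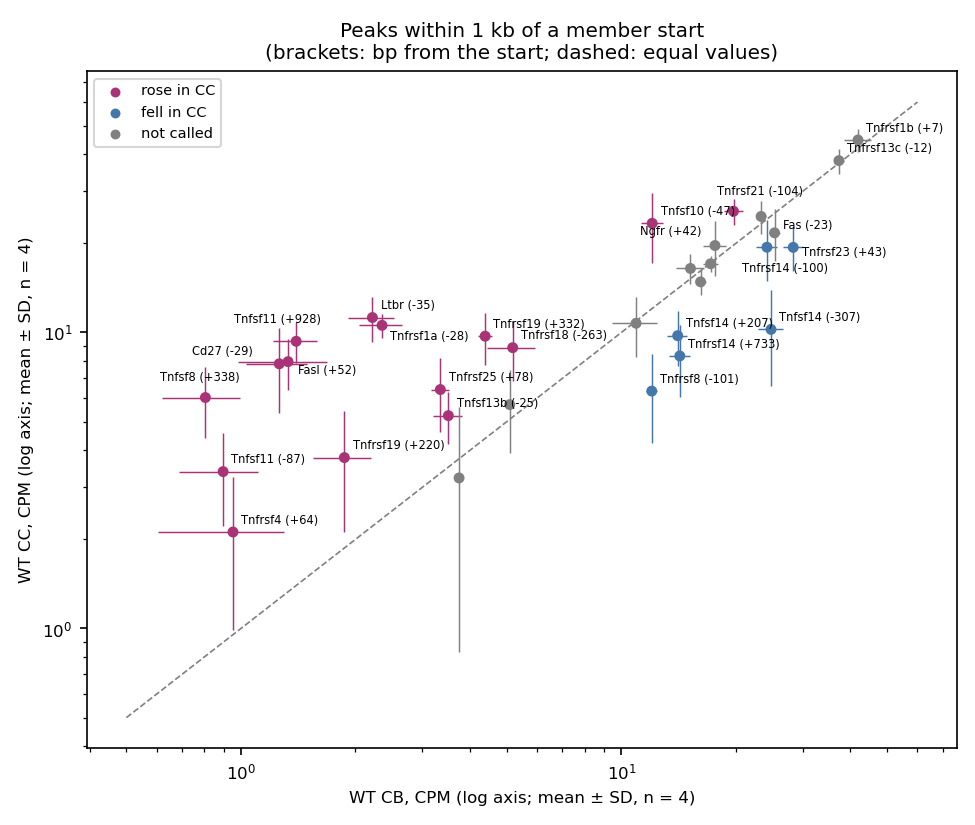
Peaks within 1 kb of a member start, with the mean CPM ± SD of the 4 WT CB libraries on the x axis and of the 4 WT CC libraries on the y axis, both on log axes. Points above the dashed line are higher in CC; starts with under 3 CPM in CB, such as Cd27, Ltbr and Fasl, lie far above it, and those of Fas, Tnfrsf13c and Tnfrsf1b lie near it.

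HET mice showed the same pattern of change from CB to CC at most members. In HET 16 of 35 loci rose (31.1% of all loci) and 13 fell (31.7%). Of these, 14 also rose and 12 also fell in WT, and no locus was called in opposite directions. The log2 changes of the 2 genotypes, which share no library, correlated across the 35 loci with Pearson's r = 0.961, a description over loci that are not replicates. Tnfsf8 rose by 2.70 (SE 0.142, edgeR adjusted p = 1.27e-18) and Ltbr by 1.86 (1.77e-10).

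Some members were called in 1 genotype alone, which does not show that the genotypes differ. Tnfrsf23 (-0.17, adjusted p = 0.0622), Cd70 (-0.06, 0.596), Tnfrsf14 (0.06, 0.293), Tnfrsf1b (0.04, 0.402) and Fasl (0.04, 0.392) did not pass in HET. The Fasl sum hides its peaks, of which 10 of 17 rose and 3 fell in HET as in WT, by up to 2.93 in HET. Tnfsf13 (0.70, 8.72e-05), Tnfsf13b (0.56, 0.00144) and Tnfrsf12a (-0.20, 0.0153) were called in HET and not in WT. The test of the difference itself, the interaction, passed at Fas only and is given further on.

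**Figure D3:**
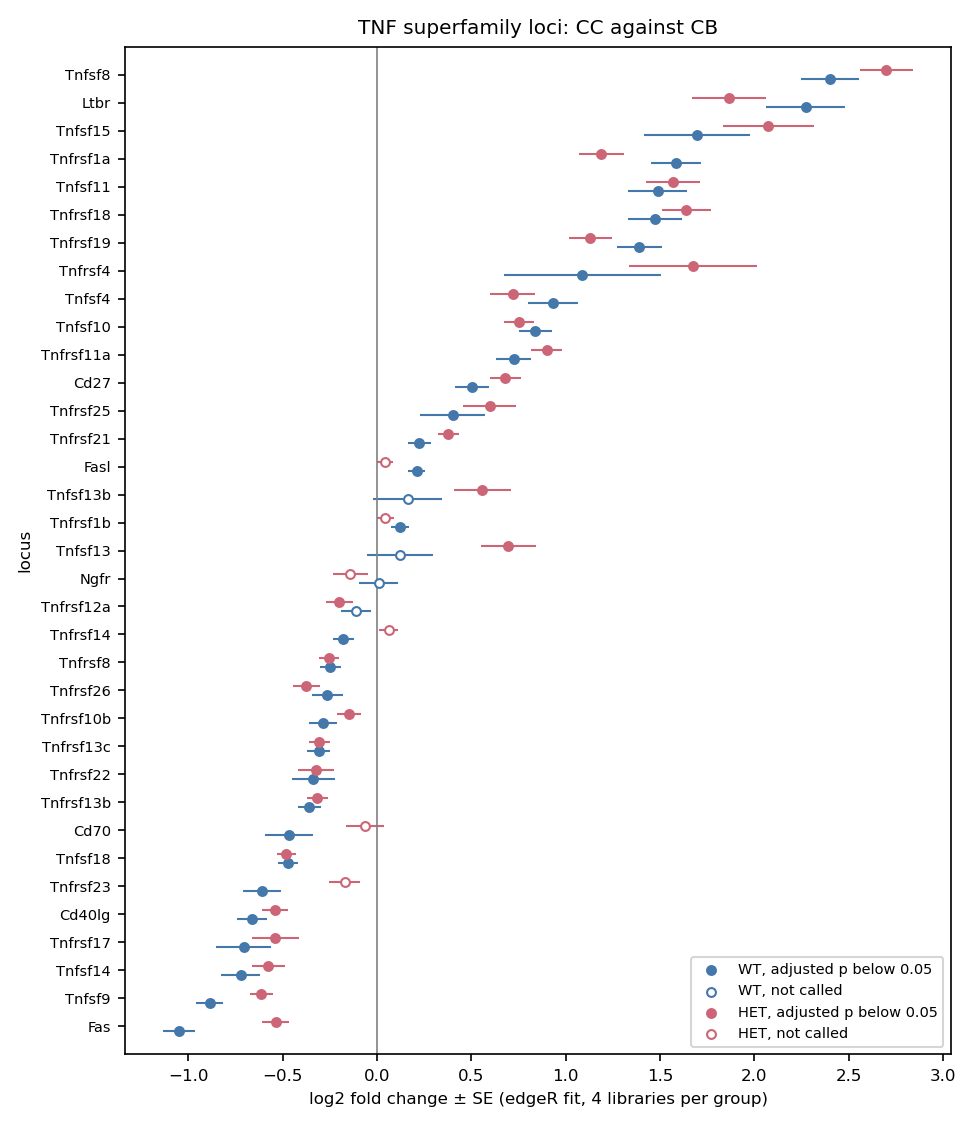
Log2 fold change ± SE of CC against CB at each of the 35 loci, in WT and in HET, with 4 libraries per group; filled points passed the edgeR test at an adjusted p below 0.05. The order of the loci is much the same in both genotypes, from Tnfsf8 at 2.40 and 2.70 to Fas at -1.05 and -0.54.

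Marker loci of other cell types moved with these changes. Over all loci 31.6% rose and 31.7% fell from CB to CC in WT. Of 14 measured T cell marker loci 11 rose and 3 fell from CB to CC in WT, and their summed level went from 410.2 to 412.8 CPM across the CB libraries to 629.2 to 720.3 across the CC libraries. In HET the sums were 393.7 to 405.5 CPM in CB and 533.1 to 626.7 in CC. The largest rises in WT were at Cd3g (3.22), Cd8a (3.09, from 1.35 to 11.5 CPM) and Bcl11b (2.30), and the falls were at Cd4 (-0.74), Cd2 (-0.46) and Cd247 (-0.18). Natural killer cell markers (6 of 10 rose, 1 fell), myeloid markers (7 of 10 rose, 3 fell) and stromal markers (4 of 7 rose, 0 fell) moved as well, and no marker locus had a count of 0 in any library. B cell markers had 0 rises and 6 falls among 8, and germinal center B cell markers 0 rises and 7 falls among 8. The part of any of these in the rises of Tnfsf8, Cd27, Tnfrsf18, Fasl and Tnfsf11 was not tested.

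Within CB no member locus differed between HET and WT by edgeR, where 0.551% of all loci did (83 of 15075, 79 of them lower in HET). At an unadjusted p below 0.05 there were 8 members (22.9%), all lower in HET, where 6.72% of all loci were lower and 3.04% higher at that p. DESeq2 called 1 member, Cd27, and 1.81% of all loci. The libraries did not overlap at 4 of the 35 members, against 11.8% of all loci. Cd27 had the smallest p, with 28.7, 29.1, 28.9 and 28.7 CPM in WT CB and 26.6, 26.4, 21.8 and 23 in HET CB. All HET libraries were lower, and the log2 difference was -0.24 (SE 0.069, edgeR adjusted p = 0.119; DESeq2 adjusted p = 0.0228). Next were Tnfsf8 (3.93 to 5.47 CPM in HET CB, -0.35, edgeR adjusted p = 0.328), Tnfrsf13b (160.4 to 173.8 CPM, -0.12, 0.333) and Tnfsf13 (6.45 to 6.96 CPM, -0.30, 0.345). None of the 228 member peaks passed (0.129% of all peaks did), 17 had an unadjusted p below 0.05 (7.46%, against 7.9% of all peaks), and DESeq2 called 2 (0.877%, against 0.787%). These peak shares were near the background.

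Within CC 6 member loci differed between the genotypes. Every HET CC library also held more counts than every WT CC library, so depth and genotype go together here. In HET 5 were higher (3.24% of all loci were) and 1 was lower (3.42%). At an unadjusted edgeR p below 0.05 there were 8 members (22.9%, against 22.1% of all loci). Of these, 5 were higher in HET (14.3%, against 10.8%) and 3 lower (8.57%, against 11.3%). The count depends on the fit, as does the share of all loci called, 6.66% in the main fit. The 6 became 1, Fas, with the CC libraries fitted alone (1.78% of all loci). They became 3 (Fas, Tnfrsf14 and Tnfrsf23) with thinned counts (4.52%), and 2 to 7 when a library was left out. The median log2 difference was -0.02 over the 35 members and 0.00 over all loci. At peak level 7 member peaks were higher (1.08% of all peaks) and 1 was lower (0.979%).

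Fas was the member with the smallest adjusted p. It had 87.2, 84.7, 86.6 and 114.6 CPM in WT CC and 116.9, 145.1, 103.8 and 153.6 in HET CC, against 194.3, 186.8, 194.8 and 183.1 in HET CB. Among the CC libraries only WT CC replicate 4 and HET CC replicate 3 crossed over, and the HET CC libraries stood between the WT CC and the CB libraries. The log2 difference of HET against WT was 0.48 in CC (SE 0.092, edgeR adjusted p = 0.00217) and -0.03 in CB (SE 0.064, 0.919). In CC it passed under each of the 16 alternatives run, at 0.40 to 0.60, the highest without WT CC replicate 4 and the lowest without HET CC replicate 4.

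The HET difference at Fas was larger in CC than in CB by 0.51 (SE 0.113, edgeR adjusted p = 0.0286), the only member locus called in this interaction (0.411% of all loci were). At peak level 2 member peaks, both of Fas, were called in it (0.159% of all peaks were). It had the same sign under all 23 alternatives, at 0.43 to 0.63, but was not called with thinned counts (adjusted p = 0.238) or without 1 of 10 libraries (0.0511 to 0.0957). These were WT CB replicate 4, HET CB replicates 1, 2, 3 and 4, WT CC replicates 1, 2 and 3, and HET CC replicates 2 and 4.

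Along Fas, 2 of 13 peaks carried called differences. The peak 1770 bp before the start (chr19:34288639-34289139) had 18.73, 19.83, 19.13 and 19.88 CPM in WT CB and 5.28, 7.07, 5.07 and 6.29 in WT CC, and 18.54, 18.6, 19.2 and 18.94 in HET CB and 10.84, 11.61, 7.55 and 14.74 in HET CC. All HET CC libraries were above all WT CC libraries and below all CB libraries (HET against WT in CC 0.94, SE 0.2, edgeR adjusted p = 0.00864; interaction 0.98, 0.0369). The CC difference did not pass without HET CC replicate 4 (0.78, 0.0563) or with the CC libraries alone (0.0726).

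The peak 17083 bp after the start (chr19:34307492-34307992) had 9.45, 8.83, 3.38 and 10.95 CPM in WT CC and 12.38, 18.73, 11.7 and 18.94 in HET CC, with 21.84 to 24.56 in the CB libraries of both genotypes. Again the HET CC libraries lay between (0.94, SE 0.194, edgeR adjusted p = 0.00625; interaction 1.01, adjusted p = 0.0279). This CC difference passed under all 15 alternatives run. At the Fas start itself the CC libraries of both genotypes overlapped (17.96 to 26.27 CPM in WT, 20.2 to 26.52 in HET, 0.12, adjusted p = 0.67).

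Both peak interactions at Fas were lost under several settings. That at 17083 bp was not called without HET CB replicate 2 or 3, WT CC replicate 2 or 3, or HET CC replicate 2 or 4, with thinned counts or with a replicate block, and ranged from 0.74 to 1.18. That at -1770 bp was not called under 14 of 22 alternatives, among them every setting without 1 HET CB library, without WT CB replicate 2, 3 or 4, without WT CC replicate 1, 2 or 3, without HET CC replicate 2 or 4, with the replicate block and with thinned counts, and ranged from 0.77 to 1.10.

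**Figure D4:**
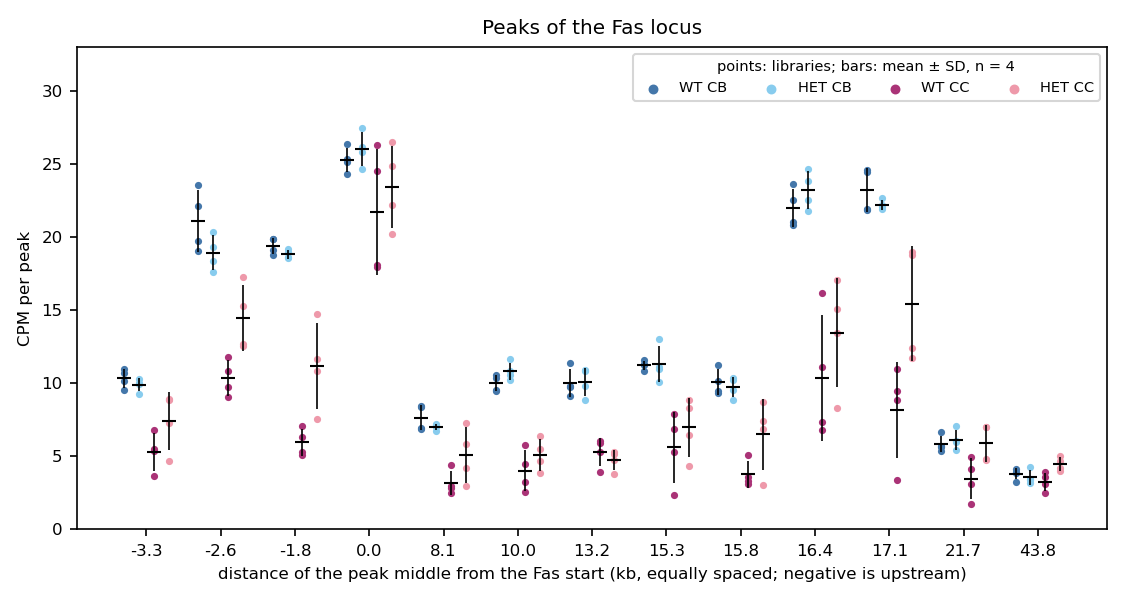
Accessibility of the 13 peaks assigned to Fas, ordered along the gene by the distance of the peak middle from the start in kb (equally spaced on the x axis), in CPM per peak on the y axis. Points are libraries and bars the mean ± SD of 4 libraries in each of the 4 groups. At the peaks 1770 bp before and 17083 bp after the start the HET CC libraries lie between the WT CC and the CB libraries, and at the start the 4 groups overlap.

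Markers of germinal center B cells moved in the same direction as Fas. Their summed level was 962.5 to 1142 CPM in the HET CC libraries, above the 836.9 to 941.2 CPM of the WT CC libraries, with 1448 to 1494 in WT CB and 1427 to 1452 in HET CB. Of 8 marker loci 4 were higher in HET CC than in WT CC and 0 lower, among them Gcsam (0.70, edgeR adjusted p = 0.000326), S1pr2, a receptor that holds B cells in the follicle (0.59), and Nuggc (0.37). These 4 also passed the interaction. Over all loci 3.24% were higher in HET CC, 3.42% were lower, and 0.411% passed the interaction. Of 10 myeloid markers 2 were also higher in HET CC and 0 lower: Csf3r (0.42, adjusted p = 0.0211) and Cebpb (0.26, 0.0177). Of the 14 T cell markers 4 were lower in HET CC and 0 higher. The summed T cell levels, given above, did not overlap between HET CC and WT CC. The part of these shifts in the difference at Fas was not tested, nor whether the marker calls hold under the alternatives.

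Tnfrsf23 was the second member by adjusted p. It had 24.7, 18.7, 19.7 and 23.8 CPM in WT CC and 29.6, 32.9, 30.4 and 29.1 in HET CC, while HET CB had 35.6, 34.3, 34.4 and 33.4. The CC groups did not overlap (0.49, SE 0.113, edgeR adjusted p = 0.00783), and the call was lost only with the CC libraries fitted alone (0.0602). Its start peak had 22.23, 16.78, 16.35 and 22.16 CPM in WT CC and 25.8, 28.76, 26.62 and 26.54 in HET CC (0.47, adjusted p = 0.0243). The peak call was lost without WT CC replicate 2 or 3 or HET CC replicate 2 or 4, with the CC libraries alone (0.134) and with thinned counts (0.0876), at 0.40 to 0.55 over its alternatives. The interaction of the locus was 0.44 and did not pass (0.123).

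The 3 other increases were less stable. Tnfrsf14 had 161.2, 133.9, 165.3 and 171.6 CPM in WT CC and 187.3, 181.2, 171.4 and 204.9 in HET CC, which overlapped only between WT CC replicate 4 and HET CC replicate 3 (0.24, SE 0.06, edgeR adjusted p = 0.0154). The call was lost without WT CC replicate 2 (0.17, 0.0938) or HET CC replicate 4 (0.19, 0.0873) and with peaks up to 10 kb (0.09, 0.461). The Tnfrsf14 call was also lost with the CC libraries alone (0.0622). Its called peaks lay 14562 bp (0.59, 0.0436) and 15824 bp (0.62, 0.0325) before the start. These peak calls were lost under 8 and 7 of 15 alternatives, both without WT CC replicate 2 or 4 or HET CC replicate 2 or 4, with the CC libraries alone and with thinned counts. The first was also lost without WT CC replicate 1 and with the replicate block (0.0573), and was 0.89 without WT CC replicate 3, and the second was also lost without WT CC replicate 3.

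Tnfsf9 had 52.2, 53.7, 43.8 and 49.9 CPM in WT CC and 60.5, 65.4, 53.4 and 61.2 in HET CC. The groups overlapped only between WT CC replicate 2 and HET CC replicate 3 (0.28, SE 0.082, edgeR adjusted p = 0.0352). The call was lost without WT CC replicate 3 (0.123) or 4 (0.0621), without HET CC replicate 2 (0.141) or 4 (0.0863) and with peaks up to 10 kb (0.17, 0.236). It was also lost with the CC libraries alone (0.162) and with thinned counts (0.0651). Cd70 had 12.3, 15.1, 13.8 and 15.6 CPM in WT CC and 16.5, 22.2, 18.2 and 22.5 in HET CC, without overlap (0.50, SE 0.142, adjusted p = 0.0292). Its call was lost without WT CC replicate 1 (0.0881) or 3 (0.0569), without HET CC replicate 2 (0.106) or 4 (0.106) and with peaks up to 10 kb (0.03, 0.973), which leaves 1 peak, inside the gene. The Cd70 call was also lost with the CC libraries alone (0.136) and with thinned counts (0.101). Cd70, Tnfsf9 and Tnfsf14 lie close together on chromosome 17.

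Tnfrsf19 was the member that was lower in HET CC. It had 31, 26.5, 28.2 and 27.8 CPM in WT CC and 20.9, 19.7, 24.5 and 16.8 in HET CC, without overlap (-0.48, SE 0.128, edgeR adjusted p = 0.0211). In CB the HET libraries were lower too, at 9.57, 9.11, 9.93 and 8.67 against 10.5, 10.6, 11.4 and 10.8, but did not pass (-0.22, 0.441), and the interaction was -0.26 (0.514). The CC call was lost without WT CC replicate 1 (0.0618), without HET CC replicate 2 (0.0641) or 4 (0.093) and with thinned counts (0.0922). It was also lost with the CC libraries alone (0.0879).

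Single peaks of 2 further members differed within CC. Fasl had 1 peak 22382 bp after its start (chr1:161765863-161766363) with 23.62, 22.96, 23.39 and 21.07 CPM in WT CC and 14.79, 13.46, 13.21 and 15.52 in HET CC. The groups were widely apart (-0.68, SE 0.144, edgeR adjusted p = 0.00872), and the call held under all 15 alternatives run. Another Fasl peak, 40158 bp after the start, was higher in HET CC (0.54, adjusted p = 0.0422) and was not called under 9 of 15 alternatives, among them those without any 1 of the WT CC libraries. Tnfrsf8 had 4.72, 3.24, 3.38 and 3.28 CPM in WT CC and 5.85, 6.73, 7.17 and 9 in HET CC at its peak 1008 bp after the start. The groups did not overlap (0.97, SE 0.243, adjusted p = 0.0233), and the call was lost without WT CC replicate 2 or 4 or HET CC replicate 2 or 4. The Tnfrsf8 peak call was also lost with the CC libraries alone (0.137) and with thinned counts (0.063).

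**Figure D5:**
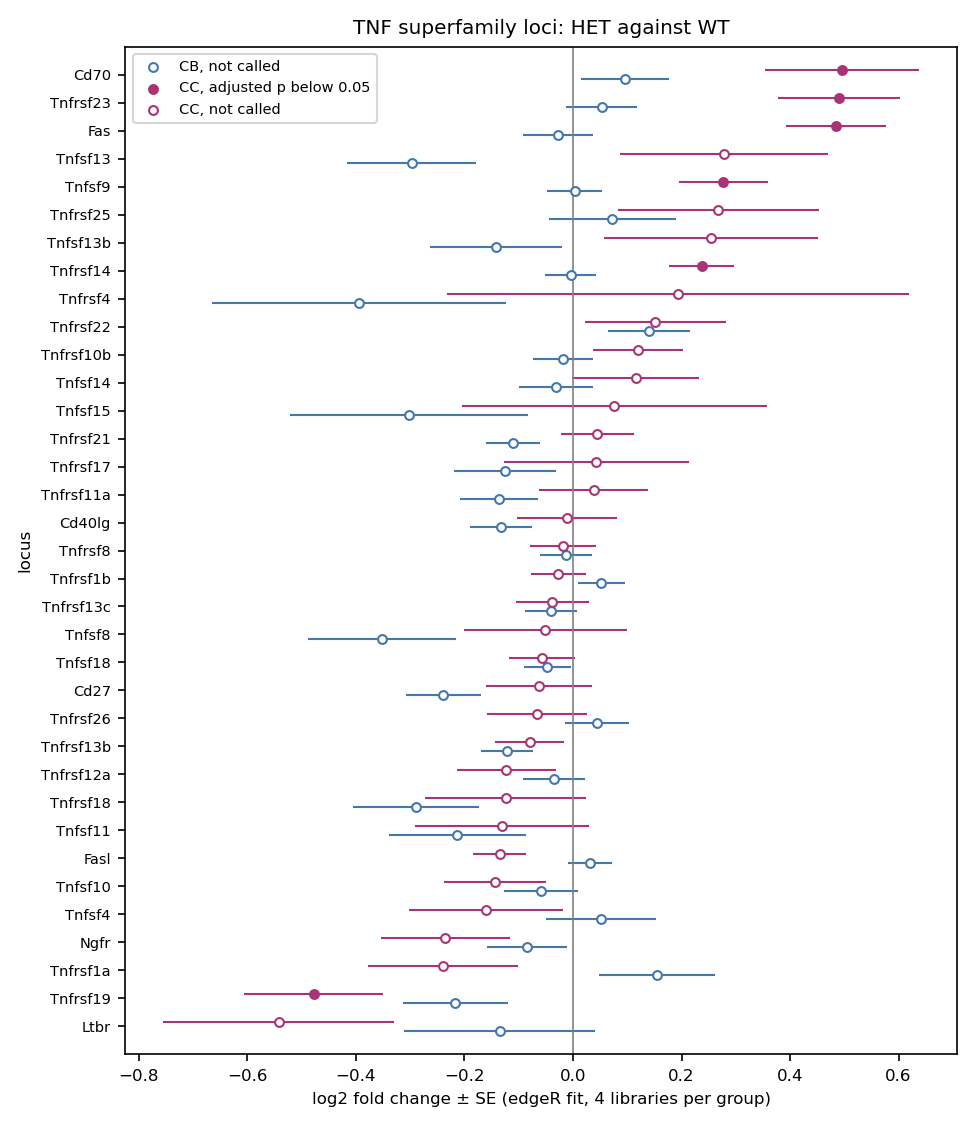
Log2 fold change ± SE of HET against WT at each of the 35 loci, in CB and in CC, with 4 libraries per group; filled points passed the edgeR test at an adjusted p below 0.05. No CB point is filled, and 6 CC points are: Tnfrsf19 at -0.48 and 5 loci from Tnfrsf14 at 0.24 to Cd70 at 0.50.

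Genes that carry the signal inside the cell were measured from a list of 35, of which 34 had a peak. From CB to CC in WT 14 rose and 13 fell, where 31.6% and 31.7% of all loci did. The median log2 change of the 34 was 0.02. The largest rises were at Ikbkb, a kinase that activates NF-kB (0.64, edgeR adjusted p = 8.85e-10), Traf2, an adaptor of TNF receptors (0.53), and Birc3, a ubiquitin ligase of their complex (0.50). The largest falls were at Chuk, a kinase of the alternative NF-kB route (-0.64), Cd40, the receptor of Cd40lg (-0.55, 2.44e-08), and Tradd, the adaptor of Tnfrsf1a (-0.53). Within CC 1 was higher in HET, Fadd, the adaptor that Fas recruits (0.33, SE 0.091, adjusted p = 0.0223; 45.7 CPM in WT CC and 57.6 in HET CC). There 5 were lower: Nfkbia, an NF-kB inhibitor (-0.23, 0.00447), Rel, an NF-kB subunit (-0.17), Mapk8 (-0.25), Birc2 (-0.25) and Traf1 (-0.18). Over all loci 3.24% were higher in HET CC and 3.42% were lower. In CB none of the 34 passed by edgeR, where 0.551% of all loci did. Whether the calls of these signalling genes hold under the alternatives was not tested.

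The peaks of the family together held 0.2174% to 0.2256% of the counts of a library in WT CB and 0.2036% to 0.2074% in WT CC. All WT CC libraries lay below all WT CB libraries, while the HET groups overlapped (0.2169% to 0.2192% in CB, 0.2054% to 0.2177% in CC). The means were 0.221 ± 0.00351% in WT CB, 0.218 ± 0.000964% in HET CB, 0.206 ± 0.00177% in WT CC and 0.211 ± 0.00608% in HET CC (mean ± SD, n = 4 in each group).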

How the data were processed

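Per the submitters' processing notes, the authors used FastQC, BWA, deepTools and R 4.2.1 with the mouse build mm10. The authors deposited raw counts per peak of 501 bp for 16 libraries in 1 table; a peak caller and a counting tool were not given in the sources used here. Peaks were assigned to protein-coding RefSeq genes of GRCm38.p6, the shortest span being taken where a peak middle lay in several (960 peaks), and 91% of peaks were assigned. Peak counts and their sums per locus were fitted with edgeR 4.0.16 (R 4.3.3): TMM scaling, filterByExpr (which removed no feature), robust quasi-likelihood tests with 1 coefficient per group over all 16 libraries, 5 comparisons, and p-values adjusted by Benjamini-Hochberg across the whole table of peaks or of loci. CPM use TMM-scaled library sizes. SE is the absolute log2 change over the square root of F. Counts of PCR-amplified reads are not independent molecules.

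Alternatives were DESeq2 1.42.0, total-count scaling, no filter or one of 50 counts, only the groups compared, a replicate block, each library left out, thinning to the smallest library, and assignment within 10 kb. On simulated counts of 15075 loci for HET against WT in CC, 74% of loci changed by 0.5 (log2) and 88% of those changed by 1 were recovered. Of the calls 4.1% were false. Each simulated locus had the same spread in all groups. These figures therefore do not cover a spread that differs between CB and CC. The members, gene lists, motifs and the rule for named genes were chosen with earlier results of these data known. Values per library are given for the 6 largest changes in each direction from CB to CC in WT. They are also given for members called between genotypes or, where none was, the 4 with the smallest p. A fixed set of family members was added. The values of 1 marker locus are not reported here.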

Additional observations from a re-analysis of the deposited data

Results flagged for a closer look

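The libraries of 23 named loci were screened in 92 groups of 4, and in 4 groups 1 library stood far from the other 3; chance alone gives such a flag in about 1 of 20 groups. At Fas WT CC replicate 4 had 114.6 CPM and the others 84.72 to 87.19. At Tnfrsf13c HET CC replicate 4 had 108.3 CPM and the others 97.68 to 99.38. At Tnfsf13b HET CC replicate 3 had 8.434 CPM and the others 10.84 to 11.28. At Tnfsf15 WT CB replicate 2 had 3.07 CPM and the others 1.637 to 1.848.

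The difference between HET and WT was itself different between CC and CB at Fas, by the interaction term of the edgeR fit. It was 0.513 at the locus (log2, adjusted p = 0.0286), 0.98 at the peak 1770 bp before the start (adjusted p = 0.0369) and 1.007 at the peak 17083 bp after it (adjusted p = 0.0279).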

How the results depend on the processing

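No result changed direction under any alternative run. The counts of members called from CB to CC stayed within 1.5 times the main count under every alternative: over settings without 1 library, 28 to 30 loci and 145 to 151 peaks in WT, and 28 to 29 loci and 136 to 154 peaks in HET. The counts between genotypes moved more. Percentages in brackets are the shares of all loci or of all peaks called under the same setting. In CB 0 loci (0.551%) became 1 with DESeq2 (1.81%) and 1 with only the groups compared (3.2%), Cd27 in both. With peaks within 10 kb 1 locus, Fasl, was called (0.471%). The 0 peaks (0.129%) became 2 with DESeq2 (0.787%) and 2 with only the groups compared (1.31%). Without 1 library the CB counts of loci and peaks both stayed at 0. In CC 6 loci (6.66%) became 1 with only the groups compared (1.78%) and 3 with thinned counts (4.52%). There 8 peaks (2.06%) became 21 with DESeq2 (5.77%), 2 with only the groups compared (0.246%) and 3 with thinned counts (1.17%). Without 1 library there were 2 to 7 loci and 2 to 14 peaks in CC. In the interaction 1 locus (0.411%) became 2 with DESeq2 (2.14%) and 0 with thinned counts (0.136%). There 2 peaks (0.159%) became 9 with DESeq2 (2.04%), 0 with the replicate block (0.0353%) and 0 with thinned counts (0.00658%). Without 1 library there were 0 to 1 loci and 0 to 5 peaks in the interaction. Thinning removes most counts of the CB libraries and part of those in HET CC. The cause of the moved counts was not tested for any setting.

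Total-count scaling changed the balance in CC over all features: of called peaks 70.4% were higher in HET rather than 52.5%, and of called loci 60.6% rather than 48.7%. The direction of each named result was the same under it. Deviations of same-numbered CB and CC libraries of the same genotype correlated weakly but positively, at 0.029 to 0.074. For most CB libraries the CC library of the same number was the closest of its genotype. Same-numbered libraries of different genotypes gave -0.12 to 0.009. The labels state no pairs, so the main fit took none, but a pairing of CB and CC libraries is not excluded. The replicate block gave 30 loci in WT (61.9% of all loci) and 28 in HET (60.4%) from CB to CC. Between genotypes it gave 0 in CB (0.418%), 6 in CC (6.17%) and 1 in the interaction (0.391%). The peaks, in the same order, were 149 (55.3% of all peaks), 145 (54.3%), 0 (0.0548%), 6 (1.57%) and 0 (0.0353%). Over single loci 762 alternative values kept their call, 43 lost it and 2 gained it; over single peaks 104 kept it and 60 lost it. In the shallowest library a peak had 22 counts at the median, which limits what peaks in CC can show.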

Other observations

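Several loci summed to a small change because their peaks moved in opposite directions from CB to CC. Tnfrsf21, a death domain receptor, had 7 peaks that rose and 4 that fell in WT, from -2.28 to 3.38 on the log2 scale. Its 4 falls lay 16811 to 30554 bp before the start, and its rises lay from 104 bp before the start onward into and past the gene. At Tnfrsf1b 3 peaks inside the gene, 16950, 17571 and 25262 bp after the start, had means of 1.513 to 2.265 CPM in WT CB and 9.465 to 13.25 CPM in WT CC, and rose by 2.33 to 2.74 (log2). A peak 11005 bp after its start fell by 0.88 (edgeR adjusted p = 1.18e-07), and the peak 7 bp after the start did not pass (0.09, adjusted p = 0.339). At Tnfrsf14 peaks 8662 bp (2.24) and 7867 bp (1.38) before the start rose, while 5 of its 12 peaks fell.

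A split by mean accessibility over all 16 libraries at 30 CPM was chosen after values had been seen. Of the 18 members below it 11 rose and 4 fell from CB to CC in WT, where 31.6% and 25% of all loci below it did. Of the 17 members at or above it 5 rose and 11 fell, where 31.5% and 35.9% of all such loci did. In HET 13 rose and 2 fell below it, where 35.7% and 22.9% of all loci did, and 3 rose and 11 fell at or above it, where 28.2% and 37.2% did.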
